A study of Homo sapiens with 12 samples.

Results

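The 10 genes described here, BIRC2, BIRC3, XIAP, TRAF1, TRAF2, TRAF3, TNFAIP3, TNIP1, CYLD and OTULIN, encode proteins that write, bind or remove ubiquitin chains at TNF receptors. They were taken by symbol from a table of 19128 gene symbols, and all 10 were found in it on 1 line each. RNA came from HT-29, a human colorectal adenocarcinoma line. In the second of 2 experiments, 8 libraries formed 4 groups of 2: cells with a lentiviral knockdown of MLKL (shMLKL) after 5 h of TBZ, shMLKL cells under DMSO, cells with a control hairpin (shGFP) after 5 h of TBZ, and shGFP cells under DMSO. TBZ is a mix of TNFα (20 ng/mL), BV6 (2 µM) and zVAD-fmk (30 µM). The first experiment had 4 single libraries: shMLKL cells after 12 h of TBZ, shMLKL cells under DMSO, parental cells after 4 h of TBZ, and parental cells under DMSO. No group received TNFα alone, so the action of each agent cannot be told apart. Whether the knockdown lines were clones or pools, and whether libraries 1 and 2 of a group were separate cultures, is not given in the sources used here, so the p-values rest on a spread between libraries that may be technical.

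When TNF binds TNFR1, the adaptor TRAF2 brings cIAP1 (the product of BIRC2) and cIAP2 (the product of BIRC3) into a receptor complex, complex I, where these E3 ligases attach ubiquitin chains to RIPK1. The chains hold the kinases that switch on NF-κB, and their removal frees RIPK1 for the complexes that kill the cell. BV6 is a bivalent SMAC mimetic that makes the cIAP proteins ubiquitinate themselves and be degraded, and zVAD-fmk inhibits caspases. With TNF they are used together to bring about necroptosis, which runs through RIPK3 and MLKL. A20 (TNFAIP3), its partner ABIN-1 (TNIP1), CYLD and OTULIN restrain or edit the chains. RNA levels say nothing of the protein, on which BV6 acts.

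Several of these genes are textbook NF-κB targets, so the sequence before their starts is shown with the matches to the NF-κB consensus, here the general 10-letter κB motif, in capitals. Each is given 5′ to 3′ on the strand of its gene, from RefSeq on GRCh38.p14. The deposited files use hg19, and no coordinate was converted between the builds. The stretch of BIRC3 is chr11:102317234-102317449 (plus strand), that of TNFAIP3 is chr6:137867188-137867217 (plus), that of TNIP1 is chr5:151081057-151081086 (minus), that of CYLD is chr16:50741887-50741916 (plus) and that of TRAF3 is chr14:102777406-102777435 (plus).
BIRC3: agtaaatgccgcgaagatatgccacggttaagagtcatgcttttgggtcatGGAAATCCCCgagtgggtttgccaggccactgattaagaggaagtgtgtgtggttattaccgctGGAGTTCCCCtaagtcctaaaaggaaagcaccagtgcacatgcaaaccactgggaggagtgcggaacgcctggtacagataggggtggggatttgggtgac
TNFAIP3: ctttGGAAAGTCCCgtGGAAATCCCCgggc
TNIP1: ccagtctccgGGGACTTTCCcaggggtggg
CYLD: ttgacagagcGGAAAGTCCCttcggccggc
TRAF3: cgggcgcgccGGGGATTTCCagcgcgcgag

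In the table of RefSeq promoters the 10 genes had 18 windows of 250 bases before a start, and 5 windows, of 5 genes, held the motif on either strand. Of all 35116 windows of that length, 12.3% held it. BIRC3 had 2 matches, which begin at −199 and −135 counted from the start of the gene, and TNFAIP3 had 2, at −67 and −55. TNIP1 had its match at −42 in 1 of 2 windows, CYLD at −189 in 1 of 3 windows, and TRAF3 at −33 in its single window. The AP-1 site TGANTCA, searched on both strands, was in 0 of the 18 windows and in 6.57% of all windows, so no match of either motif overlapped one of the other. These matches are descriptions of letters: no binding was measured here, and the absence of a match in BIRC2, XIAP, TRAF1, TRAF2 and OTULIN holds only for these windows.

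The knockdown was visible in the RNA. MLKL had 0.651 and 0.395 FPKM (fragments scaled to transcript length and library size) in shMLKL cells under TBZ and 0.606 and 0.545 FPKM in shMLKL cells under DMSO, against 1.98 and 2.03 FPKM in shGFP cells under TBZ and 3.95 and 3.89 FPKM in shGFP cells under DMSO. It also fell under TBZ in shGFP cells (log2 difference −0.71, limma adjusted p = 0.000595). Of the epithelial markers, EPCAM was between 313 and 393 FPKM and CDH1 between 80.5 and 93.0 FPKM in the 8 libraries. VIL1 had 5.72 and 6.11 FPKM in shMLKL cells under TBZ and 8.00 and 7.31 FPKM under DMSO, and 15.2 FPKM in both shGFP libraries under TBZ and 20.6 and 20.02 FPKM under DMSO. KRT20 was lower under TBZ in shMLKL cells (188 and 188 FPKM, against 229 and 234 FPKM under DMSO) and higher under TBZ in shGFP cells (209 and 209 FPKM, against 86.1 and 89.3 FPKM under DMSO). The part of these shifts in the results below was not tested. The intestinal factors CDX1 and CDX2 were at or near 0, at most 0.208 FPKM. Summed markers of leukocytes came to 4.59 to 6.71 FPKM, most of it CD68, with CD3E at 0 in every library. Markers of fibroblasts and endothelium summed to 0.0685 to 0.402 FPKM and those of liver and kidney lines to 0.628 to 1.27 FPKM. Read depth is known only in relative terms, 82.9 to 100% of the deepest library.

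After 5 h of TBZ most of these transcripts were higher, by amounts that ranged widely. BIRC3 and TNFAIP3 rose most, TNIP1 and CYLD rose severalfold, TRAF3 and BIRC2 rose moderately, and XIAP rose slightly. From a very low level, TRAF1 rose 24.9 times in shMLKL cells and 6.39 times in shGFP cells by group means. TRAF2 rose in shMLKL cells, and OTULIN did not pass the test in either line. With limma on log2(FPKM + 1) and Benjamini-Hochberg adjustment over 10364 genes, 9 of the 10 rose and 0 fell in shMLKL cells, where 20% of all genes tested were called higher and 17.6% lower. In shGFP cells 8 of 10 rose and 0 fell, where 19.1% of all genes were called higher and 37.3% lower. At an unadjusted p under 0.05 in limma, 0 of the 10 were lower in either line. TNFAIP3 and TRAF1 passed the filter of 1 FPKM only through the TBZ groups, so they had to differ. Of the other 8 genes, 7 rose in shMLKL cells and 6 in shGFP cells. The median log2 difference of the 10 was 1.41 in shMLKL cells and 1.01 in shGFP cells, and that of the 8 without TNFAIP3 and TRAF1 was 1.06 in shMLKL cells and 0.73 in shGFP cells. That of all genes tested was −0.004 in shMLKL cells and −0.12 in shGFP cells. In bulk RNA of this kind, fewer cells of a type and less RNA per cell cannot be told apart.

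**Figure D1:**
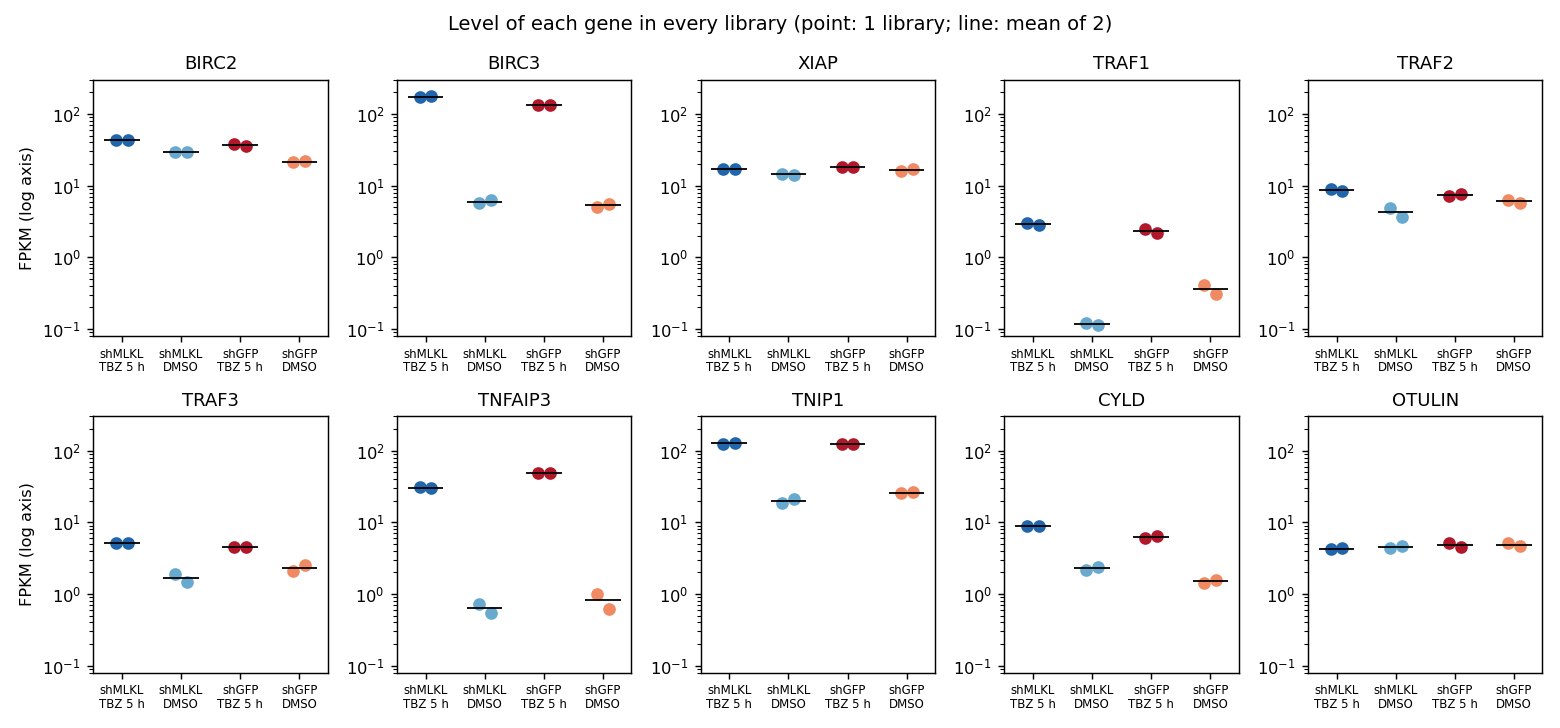
FPKM on a log axis of the 10 genes in the 8 libraries of the second experiment; each point is 1 library and each line the mean of 2, with the TBZ group left of the DMSO group of the same line. BIRC3 and TNFAIP3 lie far higher under TBZ than under DMSO in both lines, and OTULIN lies between 4.25 and 5.21 FPKM throughout.

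BIRC3 encodes cIAP2, one of the ligases that BV6 removes, and is itself a classical NF-κB target. It had 171 and 177 FPKM in shMLKL cells under TBZ, against 5.79 and 6.20 FPKM under DMSO. In shGFP cells it had 134 and 134 FPKM under TBZ, against 5.03 and 5.59 FPKM under DMSO. Every TBZ library was far above every DMSO library, with ratios of group means of 29.04 in shMLKL cells and 25.2 in shGFP cells. The difference of log2(FPKM + 1) was 4.65 ± 0.05 in shMLKL cells (SE from a spread shared by all groups, n = 2 libraries each, limma adjusted p = 5.63e-09). It ranked 2 from the top of 10364 genes. In shGFP cells it was 4.42 ± 0.05 (limma adjusted p = 4.92e-09), which ranked 8 from the top.

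BIRC2, which encodes cIAP1 and lies next to BIRC3 on chromosome 11, rose far less. Its levels were 43.3 and 44.0 FPKM in shMLKL cells under TBZ, against 29.2 and 29.5 FPKM under DMSO. In shGFP cells they were 37.6 and 35.5 FPKM under TBZ, against 21.7 and 21.7 FPKM under DMSO. The groups did not overlap, and the log2 difference was 0.56 ± 0.04 in shMLKL cells (limma adjusted p = 3.38e-05) and 0.73 ± 0.04 in shGFP cells (limma adjusted p = 4.28e-06). XIAP, the family member that binds and blocks caspases directly, had 17.2 and 16.8 FPKM in shMLKL cells under TBZ, against 14.7 and 14.3 FPKM under DMSO. It had 18.3 and 18.0 FPKM in shGFP cells under TBZ, against 16.2 and 16.8 FPKM under DMSO. Its rise was small, by 1.17 times in shMLKL cells (limma adjusted p = 0.00531) and 1.10 times in shGFP cells (limma adjusted p = 0.0332). The call in shGFP cells was lost, with adjusted p between 0.0785 and 0.145, without replicate 1 of shGFP DMSO or without either shGFP TBZ replicate, and in a fit of the shGFP groups alone (adjusted p = 0.0515).

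As FPKM is per length, the cIAP transcripts can be set side by side, and TBZ turned their order round. BIRC3 made up 80.0% ± 0.272 of the summed BIRC2 and BIRC3 FPKM in shMLKL cells under TBZ and 16.98% ± 0.574 under DMSO (SD, n = 2 each). In shGFP cells the share was 78.5% ± 0.711 under TBZ and 19.7% ± 1.15 under DMSO. The sum itself was 218 FPKM in shMLKL cells under TBZ, against 35.3 FPKM under DMSO, and 170 FPKM in shGFP cells under TBZ, against 27.0 FPKM under DMSO. Thus BIRC2 was the main cIAP transcript in every DMSO library and BIRC3 in every TBZ library. Over both lines the share was 60.9 percentage points higher in the 4 TBZ than in the 4 DMSO libraries (two-sided exact permutation test, p = 0.0286, the smallest that 4 against 4 allows). The test treated libraries as exchangeable across the lines. Permuting only within each line would allow fewer arrangements and so a larger smallest p. The genes are close relatives, and how reads that fit both were assigned is not given in the sources used here.

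**Figure D2:**
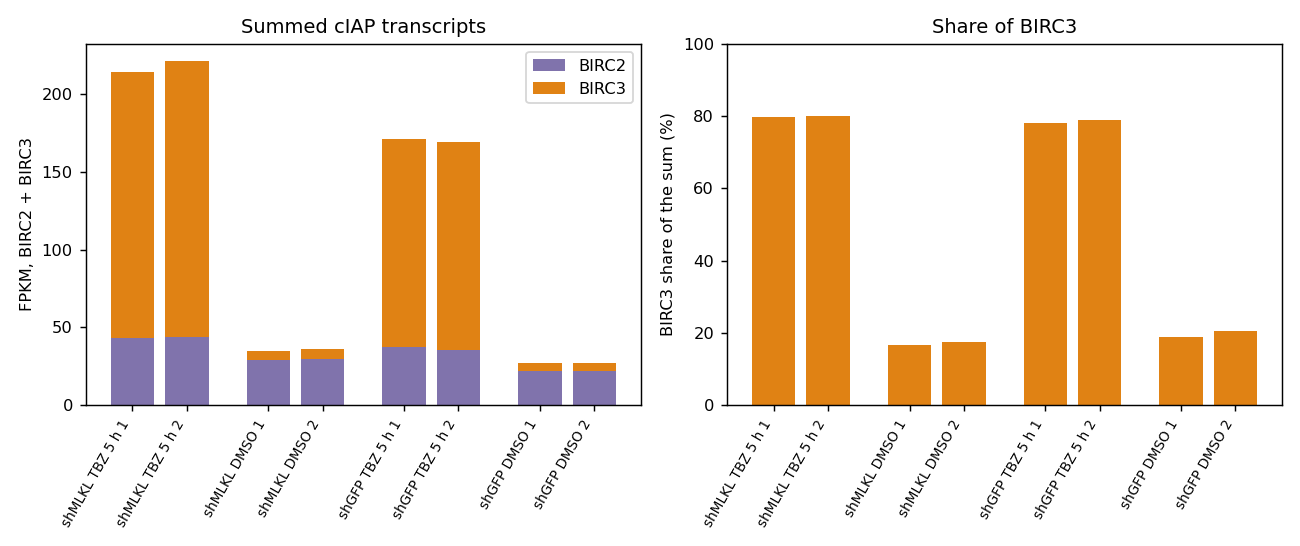
Left, FPKM of BIRC2 and BIRC3 stacked in each of the 8 libraries; right, the share of BIRC3 in that sum in percent. The share is 79.8 and 80.1% in shMLKL TBZ libraries, 16.6 and 17.4% in shMLKL DMSO libraries, 78.0 and 79.0% in shGFP TBZ libraries and 18.8 and 20.5% in shGFP DMSO libraries.

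Among the TRAF adaptors, TRAF1, which lacks the RING domain of its relatives and binds TRAF2, showed the largest rise from the lowest level. It had 3.01 and 2.81 FPKM in shMLKL cells under TBZ, against 0.121 and 0.112 FPKM under DMSO. The shGFP cells had 2.44 and 2.16 FPKM under TBZ, against 0.409 and 0.310 FPKM under DMSO. On the log2(FPKM + 1) scale, which understates the change of so low a gene, the difference was 1.81 ± 0.09 in shMLKL cells (limma adjusted p = 5.18e-06) and 1.28 ± 0.09 in shGFP cells (limma adjusted p = 1.66e-05). As TRAF1 passed the filter only through the TBZ groups, a rise was built in, and these p-values are descriptive.

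TRAF3 joins the TRAF2 and cIAP complex to the kinase NIK and so keeps noncanonical NF-κB signalling off. It had 5.22 and 5.14 FPKM in shMLKL cells under TBZ, against 1.87 and 1.48 FPKM under DMSO. In shGFP cells it had 4.46 and 4.52 FPKM under TBZ, against 2.08 and 2.50 FPKM under DMSO. The log2 difference was 1.21 ± 0.09 in shMLKL cells (limma adjusted p = 6.54e-05) and 0.74 ± 0.09 in shGFP cells (limma adjusted p = 0.000455), and no libraries of the 2 conditions overlapped. TRAF2, the adaptor that carries the cIAP ligases to the receptor, had 9.11 and 8.39 FPKM in shMLKL cells under TBZ, against 4.85 and 3.59 FPKM under DMSO (log2 difference 0.91 ± 0.12, limma adjusted p = 0.000764). The shGFP cells had 7.09 and 7.68 FPKM under TBZ, against 6.39 and 5.65 FPKM under DMSO. There the difference of 0.26 (95% interval −0.01 to 0.53) did not pass (limma adjusted p = 0.0947), although the groups did not overlap. It passed with library medians set equal (adjusted p = 0.0434), with quantile normalization (0.0376), in a fit of the shGFP groups alone (0.0359), and without replicate 1 (0.0323) or replicate 2 (0.0306) of shMLKL DMSO.

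Of the chain editors, TNFAIP3 changed most. It encodes A20, the ubiquitin-editing enzyme that restrains NF-κB signalling. It had 30.9 and 30.0 FPKM in shMLKL cells under TBZ, against 0.732 and 0.535 FPKM under DMSO. The shGFP cells had 48.9 and 48.6 FPKM under TBZ, against 1.01 and 0.621 FPKM under DMSO. Without TBZ the gene reached at most 1.01 FPKM, and the log2 difference was 4.27 ± 0.10 in shMLKL cells (limma adjusted p = 1.96e-07) and 4.78 ± 0.10 in shGFP cells (limma adjusted p = 5.17e-08). The difference ranked 4 from the top of all genes in shMLKL cells and 7 in shGFP cells. Since TNFAIP3 passed the filter only through the TBZ groups, a rise was built in, and its p-values and ranks are descriptive.

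TNIP1 encodes ABIN-1, which binds linear chains and brings A20 to them, and unlike TNFAIP3 it was already well expressed without TBZ. Its levels were 125 and 127 FPKM in shMLKL cells under TBZ, against 18.8 and 21.2 FPKM under DMSO. In shGFP cells they were 123 and 125 FPKM under TBZ, against 25.3 and 26.3 FPKM under DMSO. Under TBZ the lines lay close together, while under DMSO every shMLKL library was below every shGFP library. The log2 difference was 2.60 ± 0.05 in shMLKL cells (limma adjusted p = 1.06e-07) and 2.22 ± 0.05 in shGFP cells (limma adjusted p = 9.29e-08).

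CYLD, a deubiquitinase that strips chains from RIPK1 and is known as a promoter of necroptosis, rose in both lines. It had 8.92 and 8.95 FPKM in shMLKL cells under TBZ, against 2.15 and 2.39 FPKM under DMSO. In shGFP cells it had 5.98 and 6.36 FPKM under TBZ, against 1.43 and 1.57 FPKM under DMSO. The ratio of group means was 3.94 in shMLKL cells and 4.12 in shGFP cells, and the log2 difference was 1.61 ± 0.07 in shMLKL cells (limma adjusted p = 3.14e-06) and 1.52 ± 0.07 in shGFP cells (limma adjusted p = 2.00e-06). OTULIN, the deubiquitinase specific for linear chains, had 4.25 and 4.37 FPKM in shMLKL cells under TBZ, against 4.32 and 4.66 FPKM under DMSO. The shGFP cells had 5.21 and 4.48 FPKM under TBZ, against 5.09 and 4.61 FPKM under DMSO. All 4 groups lay close together, and the 95% interval of the TBZ difference was −0.24 to 0.14 in shMLKL cells (limma adjusted p = 0.688) and −0.19 to 0.19 in shGFP cells (limma adjusted p = 0.971). With library medians set equal the small value in shGFP cells changed sign, to 0.06.

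**Figure D3:**
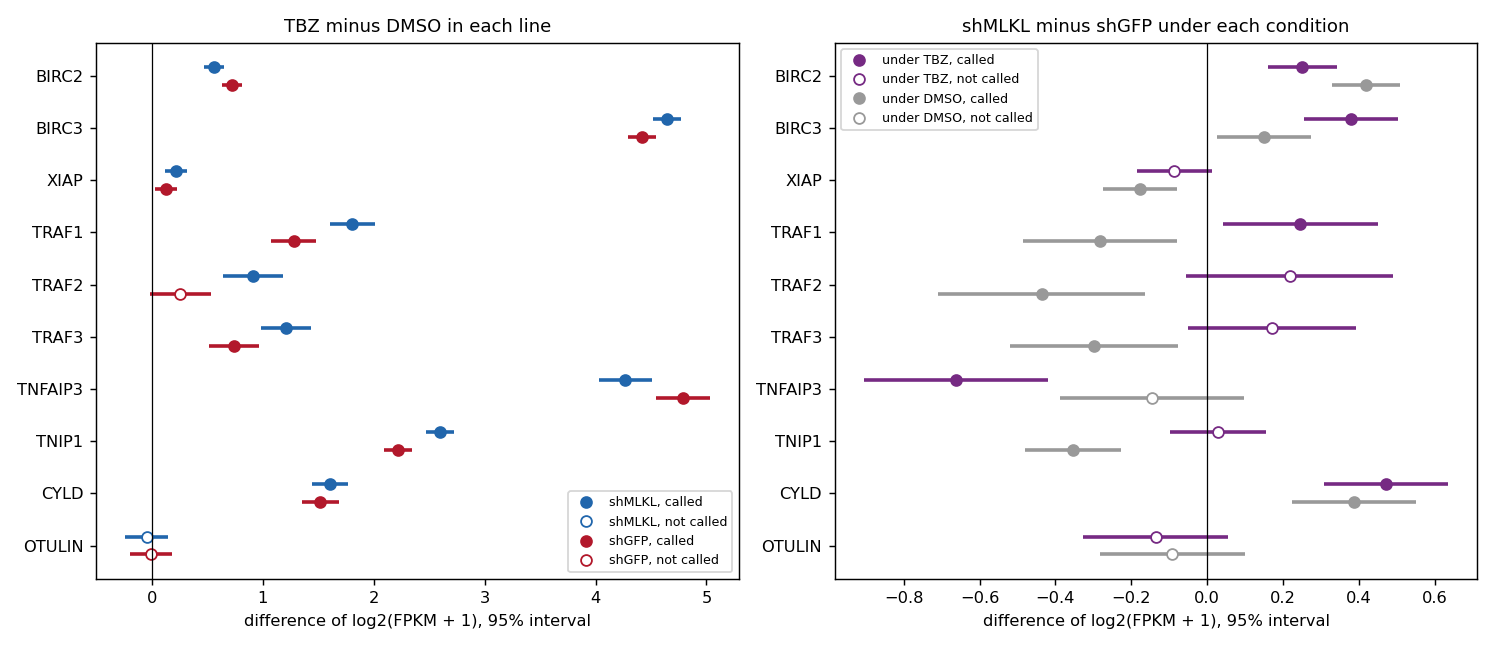
Differences of log2(FPKM + 1) with 95% intervals from the limma fit, TBZ minus DMSO in each line on the left and shMLKL minus shGFP under each condition on the right; filled points passed an adjusted p of 0.05. TBZ differences run from −0.05 to 4.65 in shMLKL cells and from −0.004 to 4.78 in shGFP cells. TNFAIP3 is the single one of the 10 called lower in shMLKL than in shGFP cells under TBZ.

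The order of levels within a group changed with treatment. In shMLKL cells under TBZ it ran BIRC3, TNIP1, BIRC2, TNFAIP3, XIAP, CYLD, TRAF2, TRAF3, OTULIN and TRAF1, and only CYLD and TRAF2 overlapped as neighbours. In shMLKL cells under DMSO it ran BIRC2, TNIP1, XIAP, BIRC3, OTULIN, TRAF2, CYLD, TRAF3, TNFAIP3 and TRAF1, with OTULIN and TRAF2 overlapping. In shGFP cells under TBZ it ran BIRC3, TNIP1, TNFAIP3, BIRC2, XIAP, TRAF2, CYLD, OTULIN, TRAF3 and TRAF1, with OTULIN and TRAF3 overlapping. In shGFP cells under DMSO it ran TNIP1, BIRC2, XIAP, TRAF2, BIRC3, OTULIN, TRAF3, CYLD, TNFAIP3 and TRAF1, with BIRC3 and OTULIN overlapping. TRAF1 was thus the lowest in every group, and TNFAIP3 stood last but one under DMSO in both lines.

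Under TBZ the lines differed in what they held of these genes. BIRC2, BIRC3, CYLD and TRAF1 were higher and TNFAIP3 lower in shMLKL than in shGFP cells, 4 higher and 1 lower of 10, where 20.7% of all genes were called higher and 31% lower. As TNFAIP3 and TRAF1 passed the filter only through these TBZ groups, their p-values here are descriptive. Of the other 8 genes, 3 were called higher and 0 lower. TNFAIP3 averaged 30.5 ± 0.644 FPKM in shMLKL cells and 48.7 ± 0.171 FPKM in shGFP cells (SD, n = 2 each; log2 difference −0.66 ± 0.10, limma adjusted p = 0.00146). BIRC3 averaged 174 ± 4.65 FPKM in shMLKL cells and 134 ± 0.204 FPKM in shGFP cells (0.38 ± 0.05, limma adjusted p = 0.000868). CYLD averaged 8.94 ± 0.0180 FPKM in shMLKL cells and 6.17 ± 0.271 FPKM in shGFP cells (0.47 ± 0.07, limma adjusted p = 0.00112). BIRC2 averaged 43.7 ± 0.426 FPKM in shMLKL cells and 36.5 ± 1.48 FPKM in shGFP cells (0.25 ± 0.04, limma adjusted p = 0.00134). These 4 calls held under every alternative run. That of TRAF1 (0.25 ± 0.09, limma adjusted p = 0.0472) was lost in 7 of 16 alternatives, with adjusted p up to 0.186 without replicate 2 of shGFP TBZ.

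Under DMSO, 3 of the 10 genes were higher and 5 lower in shMLKL cells, where 18.3% of all genes were called higher and 44.8% lower, and the median of all genes was −0.16. Without TNFAIP3 and TRAF1, which passed the filter only through the TBZ groups, 3 of 8 genes were higher and 4 lower. BIRC2 (log2 difference 0.42 ± 0.04, limma adjusted p = 7.85e-05) and CYLD (0.39 ± 0.07, limma adjusted p = 0.00206) were higher and TNIP1 lower (−0.35 ± 0.05, limma adjusted p = 0.000917). With library medians set equal these were 0.59, 0.56 and −0.19, all still called. BIRC3 was higher by 0.15 (limma adjusted p = 0.0390), a call that was lost in 9 of 17 alternatives. With library medians set equal BIRC3 was higher by 0.32 and still called (limma adjusted p = 0.00195). TRAF1 (−0.28), TRAF2 (−0.44), TRAF3 (−0.30) and XIAP (−0.18) were called lower, with limma adjusted p of 0.00746 to 0.0261. With library medians set equal, all of TRAF1 (−0.11), TRAF2 (−0.27), TRAF3 (−0.13) and XIAP (−0.01) lost the call. TNFAIP3 averaged 0.634 FPKM in shMLKL cells and 0.815 FPKM in shGFP cells, and OTULIN 4.49 FPKM in shMLKL cells and 4.85 FPKM in shGFP cells. Neither passed the test (limma adjusted p = 0.250 for TNFAIP3 and 0.351 for OTULIN).

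Whether the TBZ effect itself differed between the lines was tested as the effect in shMLKL minus that in shGFP cells. The effects on TRAF2 (0.65 ± 0.16, limma adjusted p = 0.0297), TRAF1 (0.53 ± 0.12, 0.0224), TRAF3 (0.47 ± 0.13, 0.0439) and TNIP1 (0.38 ± 0.08, 0.0132) were larger in shMLKL cells. That on TNFAIP3 was smaller (−0.52 ± 0.15, limma adjusted p = 0.0435). These 4 and 1 of 10 stand beside 14.6% of all genes called higher and 7.66% called lower, and the median of all genes was 0.10. TNFAIP3 and TRAF1 passed the filter only through the TBZ groups, so their p-values here are descriptive. Of the other 8 genes, 3 were called higher and 0 lower. The TNIP1 call was lost only without replicate 2 of shGFP DMSO (adjusted p = 0.0500483). The other 4 calls were fragile. Of 8 fits that left out 1 library, TNFAIP3 (lowest effect −0.67, highest −0.36), TRAF2 (0.48 to 0.83) and TRAF3 (0.36 to 0.58) lost the call in 7 and TRAF1 (0.47 to 0.59) in 5, with the sign kept in all 8. The difference was not called for BIRC3 (0.23, interval 0.05 to 0.40, limma adjusted p = 0.0654), BIRC2 (−0.17, interval −0.30 to −0.04, 0.0636), XIAP (0.09, interval −0.05 to 0.23), CYLD (0.08, interval −0.15 to 0.32) or OTULIN (−0.04, interval −0.31 to 0.23). With library medians set equal, BIRC2 was called (−0.26, adjusted p = 0.0233), and the small values of CYLD and XIAP changed sign. TRAF1 (0.44, adjusted p = 0.0507) and TRAF3 (0.38, adjusted p = 0.0929) lost the call in that setting. With quantile normalization the calls of TRAF1 (0.39, adjusted p = 0.0679), TRAF2 (0.53, adjusted p = 0.0600) and TRAF3 (0.29, adjusted p = 0.161) were lost. Those of TNIP1 and TNFAIP3 held under both scalings. All these contrasts share libraries with one another.

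The first experiment gives the same genes at other times, with 1 library a group and so no replicate check and no test. Cufflinks split reads there between RefSeq and newly assembled transcripts, and an exact 0 can be a failed estimate. Values are RefSeq sums, followed by the sum with assembled transcripts where these had any FPKM. BIRC3 (hg19 chr11:102188181-102210135, plus strand) had 69.2 FPKM in shMLKL cells after 12 h of TBZ and was listed at 0 under DMSO. It had 52.0 FPKM in parental cells after 4 h of TBZ and was listed at 0 under DMSO. Assembled transcripts added 23.4 FPKM at 12 h and 87.7 FPKM at 4 h, and the one at 12 h ran from 102188140 to 102248746, through the neighbouring BIRC2. At 4 h all RefSeq FPKM of BIRC3 stood on NM_182962, and at 12 h 58.6% stood on NM_001165 and 41.4% on NM_182962.

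TNFAIP3 (chr6:138188325-138204451, plus) had 10.4 FPKM in shMLKL cells after 12 h of TBZ and 0.365 FPKM under DMSO, and 40.7 FPKM in parental cells after 4 h and 0.614 FPKM under DMSO. With assembled transcripts the shMLKL values became 12.6 FPKM after 12 h and 0.545 FPKM under DMSO. TNIP1 (chr5:150409504-150467221, minus) had 99.96 FPKM in shMLKL cells after 12 h of TBZ and 34.3 FPKM under DMSO, and 162 FPKM in parental cells after 4 h and 40.6 FPKM under DMSO. Both were high in the TBZ library of either pair. Since line and time differ together, the 12 h and 4 h values are only set side by side. For CYLD (chr16:50775961-50835846, plus) the choice of transcripts mattered: RefSeq transcripts gave 6.51 FPKM after 12 h and 0.879 FPKM under DMSO in shMLKL cells, and 3.00 FPKM after 4 h and 1.12 FPKM under DMSO in parental cells. With assembled transcripts these became 9.04 FPKM after 12 h and 2.395 FPKM under DMSO in shMLKL cells, and 25.6 FPKM after 4 h and 1.66 FPKM under DMSO in parental cells.

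BIRC2 (chr11:102217913-102249401, plus) had 30.6 FPKM in shMLKL cells after 12 h of TBZ and 29.8 FPKM under DMSO, and 31.1 FPKM in parental cells after 4 h and 16.8 FPKM under DMSO. An assembled transcript brought the parental DMSO value to 27.3 FPKM, so the log2 difference at 4 h was 0.84 from RefSeq transcripts and 0.18 with assembled ones. XIAP (chrX:122993662-123047829, plus) had 16.4 FPKM in shMLKL cells after 12 h of TBZ and 11.9 FPKM under DMSO, and 13.8 FPKM in parental cells after 4 h and 13.2 FPKM under DMSO. An assembled transcript brought its shMLKL DMSO value to 13.6 FPKM. TRAF2 (chr9:139780965-139821067, plus) had 28.3 FPKM in shMLKL cells after 12 h of TBZ and 11.4 FPKM under DMSO, and 20.0 FPKM in parental cells after 4 h and 14.01 FPKM under DMSO. Assembled transcripts brought the shMLKL DMSO value of TRAF2 to 14.9 FPKM, so its log2 difference at 12 h was 1.24 from RefSeq transcripts and 0.88 with assembled ones. Both genes were higher in the TBZ library of each pair by either sum, XIAP by little in the parental pair.

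TRAF3 (chr14:103243816-103377837, plus) had 6.83 FPKM in shMLKL cells after 12 h of TBZ and 3.64 FPKM under DMSO, and 8.16 FPKM in parental cells after 4 h and 3.94 FPKM under DMSO. TRAF1 (chr9:123664671-123691451, minus) had 0.978 FPKM in shMLKL cells after 12 h of TBZ and 1.84 FPKM under DMSO, and 2.25 FPKM in parental cells after 4 h and 1.41 FPKM under DMSO. With assembled transcripts TRAF1 stood at 2.24 FPKM after 12 h, so the direction of that pair turned, and at 3.21 FPKM after 4 h. OTULIN (chr5:14664783-14699842, plus) had 5.89 FPKM in shMLKL cells after 12 h of TBZ and was listed at 0 under DMSO, where an assembled transcript over the same exons had 4.37 FPKM. In parental cells it had 2.75 FPKM after 4 h of TBZ and 4.16 FPKM under DMSO.

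**Figure D4:**
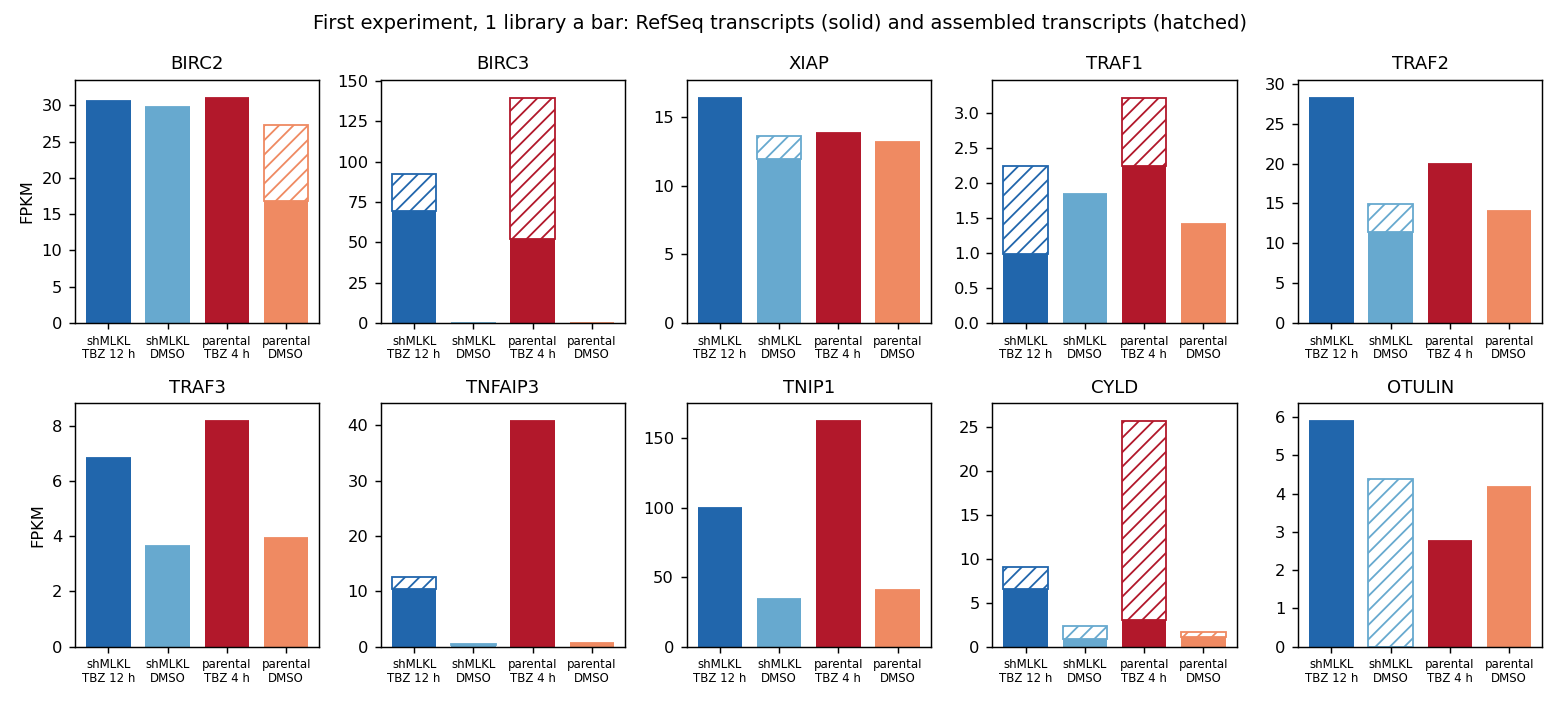
FPKM of the 10 genes in the 4 libraries of the first experiment, 1 library a bar, with RefSeq transcripts solid and assembled transcripts hatched; each TBZ bar stands left of the DMSO bar of its line. BIRC3 reaches 92.6 FPKM in shMLKL cells after 12 h of TBZ and 140 FPKM in parental cells after 4 h and is listed at 0 under DMSO in both lines.

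Beyond the 10, related genes of the pathway were read from 8 lists. Of 67 such genes, 66 were in the table and 56 passed the filter. The lists are not split by the groups through which a gene passed. A gene that passed only through TBZ groups had a rise built in. In shMLKL cells 21 of the 56 rose and 8 fell under TBZ, and in shGFP cells 21 rose and 14 fell. Of all genes, 20% were called higher and 17.6% lower in shMLKL cells, and 19.1% higher and 37.3% lower in shGFP cells. The counts of each single list below are to be read beside these same shares. Their median log2 difference was 0.05 in shMLKL cells and 0.03 in shGFP cells.

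Genes of noncanonical NF-κB signalling, the branch that TRAF3 and the cIAP ligases restrain, had the highest median of the 8 lists: 4 of 6 rose and 1 fell in shMLKL cells (median 1.66), and 5 rose and 1 fell in shGFP cells (median 1.59). NFKB2, the precursor of the p52 subunit, averaged 86.4 FPKM in shMLKL cells under TBZ and 9.40 FPKM under DMSO (3.07 ± 0.04, limma adjusted p = 1.14e-08). In shGFP cells it averaged 89.1 FPKM under TBZ and 9.95 FPKM under DMSO (3.04 ± 0.04, limma adjusted p = 8.76e-09). The receptor gene LTBR fell, by 0.55 in shMLKL cells (limma adjusted p = 0.000168) and by 0.33 in shGFP cells (limma adjusted p = 0.00121). The receptor gene TNFRSF12A rose by 0.86 in shGFP cells (limma adjusted p = 3.00e-05). In shMLKL cells its difference of 0.08 did not pass (limma adjusted p = 0.368), and the difference of effects was −0.78 (limma adjusted p = 0.00142). Under DMSO it had 146 FPKM in shMLKL cells and 76.7 FPKM in shGFP cells. The part of these DMSO levels in the difference of effects was not tested. The TBZ effect on TNFRSF9, another receptor that binds TRAF proteins, was larger in shMLKL cells (0.55, limma adjusted p = 0.0208). In the first experiment TNFRSF9 lay near the floor under DMSO, at 0.0352 FPKM in shMLKL cells and 0.00493 FPKM in parental cells.

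Among the receptor, adaptor and kinase genes of complex I, 6 of 13 rose and 3 fell in shMLKL cells, and 5 rose and 3 fell in shGFP cells. The 13 include IKBKG, which is listed at 0 in every library but a single one of shMLKL TBZ, so its change could not be judged. IKBKE, a kinase of the IKK family, averaged 3.70 FPKM in shMLKL cells under TBZ and 0.675 FPKM under DMSO (1.49 ± 0.09, limma adjusted p = 1.55e-05). The average in shGFP cells was 5.31 FPKM under TBZ and 2.197 FPKM under DMSO (0.98 ± 0.09, limma adjusted p = 7.38e-05), and the effects differed by 0.51 (limma adjusted p = 0.0259). AZI2, an adaptor of these kinases, fell by 0.26 in shMLKL cells (limma adjusted p = 0.0132) and by 0.53 in shGFP cells (limma adjusted p = 0.000261). Of the 4 genes of LUBAC, the ligase of linear chains, and its partner, SPATA2 passed in shMLKL cells (0.26, limma adjusted p = 0.0199) and 0 passed in shGFP cells, where 2 were lower at an unadjusted p under 0.05. SPATA2 joins CYLD to LUBAC. Of the other 4 TRAF genes, 0 rose (also 0 at an unadjusted p under 0.05 in limma) and 2 fell in each line. Of all genes, 17.6% were called lower in shMLKL cells and 37.3% in shGFP cells. TRAF5 fell most, by 0.67 in shMLKL cells (limma adjusted p = 0.00240) and by 0.66 in shGFP cells (limma adjusted p = 0.00163).

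Of 4 partners of A20 and ABIN-1 tested, 1 rose in shMLKL cells and 3 in shGFP cells, with 0 falls, also at an unadjusted p under 0.05. TNIP2, which encodes the relative ABIN-2, rose by 0.52 in shMLKL cells (limma adjusted p = 0.000211) and by 0.55 in shGFP cells (limma adjusted p = 9.36e-05). RNF11, a ligase that works with A20, rose by 0.54 in shGFP cells (limma adjusted p = 0.00021). In shMLKL cells its difference of 0.01 did not pass (limma adjusted p = 0.902), and the difference of effects was −0.52 (limma adjusted p = 0.00532). Under DMSO it was higher in shMLKL than in shGFP cells by 1.13 (limma adjusted p = 6.24e-06). Of 7 other deubiquitinases tested, 2 rose and 0 fell in shMLKL cells, also at an unadjusted p under 0.05. In shGFP cells 1 rose and 3 fell, where 19.1% of all genes were called higher and 37.3% lower. OTUD1 rose by 0.39 in shMLKL cells (limma adjusted p = 0.00400) and by 0.40 in shGFP cells (limma adjusted p = 0.00234). STAMBP fell by 0.28 in shGFP cells (limma adjusted p = 0.00678), and its effect in shMLKL cells was higher by 0.31 (limma adjusted p = 0.0446).

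Of 5 other genes of the IAP family and its antagonists, 2 rose and 1 fell in shMLKL cells, and 2 rose and 3 fell in shGFP cells. XAF1, an antagonist of XIAP, averaged 7.15 FPKM in shMLKL cells under TBZ and 1.89 FPKM under DMSO (1.495 ± 0.067, limma adjusted p = 3.75e-06). The average in shGFP cells was 9.10 FPKM under TBZ and 6.60 FPKM under DMSO (0.41 ± 0.07, limma adjusted p = 0.00152), and the difference of effects was 1.08 (limma adjusted p = 0.000341). BIRC6 fell by 0.18 in shMLKL cells (limma adjusted p = 0.0120) and by 0.24 in shGFP cells (limma adjusted p = 0.00175). HTRA2, called lower in shGFP cells, is listed at 0 in both TBZ libraries there and in 1 TBZ library of shMLKL cells, which may be failed estimates.

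Of 13 genes of ubiquitin and its activating and conjugating enzymes, 5 rose and 1 fell in shMLKL cells, and 5 rose and 2 fell in shGFP cells. UBE2D1, a conjugating enzyme of RING ligases, rose by 0.57 in shMLKL cells (limma adjusted p = 0.00240) and by 1.15 in shGFP cells (limma adjusted p = 4.21e-05). The effect in shMLKL minus that in shGFP cells was −0.57 (limma adjusted p = 0.0208). UBE2V1, a partner of UBE2N, fell by 0.18 in shMLKL cells (limma adjusted p = 0.0279) and by 0.24 in shGFP cells (limma adjusted p = 0.00540).

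Likeness of pattern was measured as the distance between genes over the 8 libraries, with log2(FPKM + 1) set relative to the mean of shGFP DMSO. Nearest to BIRC3 were TNFAIP3 (distance 1.22), DNAJB4 (1.76) and LYRM5 (2.03). Nearest to TNFAIP3 were DNAJB4 (1.19), BIRC3 (1.22) and SOD2 (1.22), so BIRC3 and TNFAIP3 were each among the 3 nearest to the other. Nearest to TRAF1 were IL10RB (0.34), GBP4 (0.43) and LACC1 (0.44), and nearest to CYLD were BCL3 (0.26), IL6ST (0.34) and TRIM31 (0.37). Distances grow with the size of the change, so they compare genes only within a list of neighbours.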

How the data were processed

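Polyadenylated RNA was sequenced as 100 nt paired-end reads from a stranded library kit, per the labels' protocols. The submitters' processing notes name hg19, GATK, STAR 2.4.0f1, Cufflinks 2.2.1 and TopHat2 2.0.13, with no role stated. The authors deposited 1 table of 8 libraries (29437 lines), whose unit, not named in its header, was taken as FPKM from its values, and Cufflinks transcript lists with FPKM for 4 libraries. Read counts were not used here, so no count test was run.

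Each symbol was represented by its line of highest mean. The 10364 genes whose mean reached 1 FPKM in any group were fitted as log2(FPKM + 1) values, computed from the deposited table, with limma (version 3.58.1, R 4.3.3) on group means with trended empirical Bayes (two-sided, called at an adjusted p under 0.05). The 10 genes, the lists and the rule for named genes (of each list, the called gene with the largest rise and fall in the TBZ contrasts and in the difference of effects, and the 3 nearest genes of 4 members) were chosen with earlier results of these data known. A gene that the rule named is not reported here. The main fit estimated 1 spread per gene across all 8 libraries. Each SE therefore does not come from the groups compared alone. Replicate numbers were not used as a block. On simulated data for TBZ against DMSO in shGFP cells, with 200 of 10364 genes changed, the fit recovered 87.5% of log2 changes of 0.5 and 99.5% of changes of 1, with 9.3 false calls on average over 10 runs. Changes were set only in genes above a floor of expression in shGFP DMSO cells, which left out TNFAIP3, TRAF1 and CYLD. Noise was drawn as normal and independent for each library, and in the data 5844 genes were called in this contrast. These rates therefore describe the simulation and may not hold for the data. The share of BIRC3 was tested with SciPy 1.17.1. For the 4 single libraries, FPKM were added up over RefSeq transcripts per gene. Assembled transcripts were added where at least 50% of their exon bases lay in exons of the gene, a choice made after seeing the data. An entry of 89 bases on chromosome 1 held 83.3 to 89.9% of all FPKM there, and gene values do not include it.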

Additional observations from a re-analysis of the deposited data

Results flagged for a closer look

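For 5 of the 10 genes the TBZ effect differed between shMLKL and shGFP cells by a test of the difference itself (limma, adjusted p under 0.05), where 14.6% of all genes were called higher and 7.66% lower. TNFAIP3 and TRAF1 passed the filter only through the TBZ groups, so their tests are descriptive. Of the other 8 genes, 3 were called higher and 0 lower. On the log2(FPKM + 1) scale the effect in shMLKL minus that in shGFP cells was 0.65 for TRAF2, 0.53 for TRAF1, 0.47 for TRAF3, 0.38 for TNIP1 and −0.52 for TNFAIP3. With 1 library left out at a time, the call was lost in 7 of 8 fits for TNFAIP3, TRAF2 and TRAF3, in 5 for TRAF1 and in 1 for TNIP1. TRAF1 and TRAF3 also lost the call with library medians set equal, and TRAF1, TRAF2 and TRAF3 with quantile normalization. TNIP1 averaged 126 FPKM in shMLKL and 124 FPKM in shGFP cells under TBZ, and 19.995 FPKM in shMLKL and 25.8 FPKM in shGFP cells under DMSO. TNFAIP3 averaged 30.5 FPKM in shMLKL and 48.7 FPKM in shGFP cells under TBZ, and 0.634 FPKM in shMLKL and 0.815 FPKM in shGFP cells under DMSO.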

How the results depend on the processing

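For the TBZ effect in shMLKL cells, the 10 genes kept direction and side of the threshold in all 168 values over 17 alternatives, and in shGFP cells in 155 of 168. Of members called higher in the difference of effects (4), 2 were called without the filter, 2 with library medians set equal and 1 with quantile normalization. Of members called lower there (1), 0 were called at a pseudocount of 0.1, without the filter or without the trend, and 2 with library medians set equal or quantile normalization. In shMLKL against shGFP under DMSO, 1 member was called lower with either scaling and 3 in a fit of the groups compared, against 5. Leaving out 1 library at a time gave 9 members called higher in shMLKL and 7 to 9 in shGFP, 1 to 3 higher and 0 to 1 lower in the difference, 2 to 3 higher and 2 to 5 lower between the lines under DMSO, and 3 to 4 higher and 1 lower under TBZ. Genes called among all tested then ran from 2845 to 3686 of 10364 in shMLKL, 4589 to 5833 in shGFP, 1327 to 1683 in the difference, 5507 to 6561 under DMSO and 4198 to 5263 under TBZ. The BIRC3 share differed by 60.3 to 61.7 points, with an exact p of 0.0571, the smallest that 3 against 4 allows.

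Signs that turned were all of genes not called. OTULIN in shGFP cells was 0.060 with library medians set equal, 0.10 with quantile normalization, and −0.095 to 0.086 with 1 library left out. For the difference of effects, CYLD was −0.038 at a pseudocount of 0.1, −0.0079 with library medians set equal and −0.083 with quantile normalization, XIAP was −0.0025 with library medians set equal, and OTULIN was −0.13 to 0.047 with 1 library left out. Under DMSO, TNFAIP3 was 0.023 with library medians set equal, 0.12 with quantile normalization and 0.0082 without replicate 1 of shGFP DMSO, and −0.30 and called without replicate 2, and OTULIN was 0.077 and 0.11 with the same 2 scalings. With library medians set equal, the share of higher genes among all those called was 45.8% in shMLKL (53.2% without), 44.5% in shGFP (33.9% without), 38.9% in the difference (65.6%), 53.1% under DMSO (29.04%) and 54.6% under TBZ (40.0%). The cause was not tested.

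Same-numbered libraries did not deviate together (residual correlations −0.066 to 0.028 over 6 pairs of groups). With the replicate number as a block, the counts of members called were 9 higher in shMLKL, 8 in shGFP and 4 in the difference of effects, as without it. BIRC3 gained (0.23, adjusted p = 0.0433) and TRAF3 lost (0.47, adjusted p = 0.0645) the call in the difference of effects. In the first experiment, bounds for a gene were the deposited bounds of its RefSeq transcripts added up, which is not a confidence interval of the gene. Of 40 gene values, 19 left these bounds with the top transcript alone and 14 with assembled transcripts.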

Other observations

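Some abundant genes are listed at an exact 0 in single libraries of the second experiment. KRT8 and KRT18 are listed at 0 in 7 of the 8 libraries and at 694 and 535 FPKM in replicate 2 of shMLKL DMSO. TAX1BP1, a partner of A20, is listed at 0 in replicate 1 of shMLKL TBZ and at 96.5 FPKM in replicate 2. IKBKG, which encodes the regulatory subunit of the IKK complex, has 4.78 FPKM in replicate 1 of shMLKL TBZ and is listed at 0 in the other libraries. None of the 80 values of the 10 genes is an exact 0.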
